A study of Mus musculus with 12 samples.

Results

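Keratin-associated protein genes, whose symbols begin with Krtap followed by a digit, were examined in mouse skin with dermatitis induced by dinitrochlorobenzene (DNCB), a contact sensitizer. Choosing by symbol alone gave 53 of the 23282 entries in the count table. This group of genes was picked with earlier results of these data known. Skin RNA was sequenced from 12 wild-type male C57BL/6J mice that were 5 weeks old on arrival, 1 library per mouse. All 12 mice received 0.5% DNCB on the dorsal skin 3 times a week for 6 weeks, together with distilled water as the oral vehicle. The 5 AD (atopic dermatitis) mice ate normal chow. The 7 AD+OB mice, called HF + AD in the study, ate a diet with 60 kcal% fat for 10 weeks, of which 4 preceded DNCB. The comparison therefore asks how the diet altered Krtap transcripts in skin that was treated with DNCB in both groups. Sham skin was not analysed here, so no value below says what DNCB itself did, and AD is a contact model in mice rather than the human disease. The labels give the tissue only as skin, with no body site for the RNA, and the hair cycle stage of the mice is not given in the sources used here.

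Keratin-associated proteins fill the space between the keratin filaments of the hair shaft, and disulfide bonds between their cysteines and those of the hair keratins make the shaft hard. They are made late, in the differentiating cells of the cortex and cuticle of a growing hair, above the dividing matrix of the bulb, and they are not made by the epidermis between follicles. By composition they fall into high-sulfur, ultra-high-sulfur and high-glycine-tyrosine proteins. Here 17 genes were placed among the high-sulfur families, 20 among the ultra-high-sulfur families and 14 among the high-glycine-tyrosine families by family number, and the 2 Krtap31 genes were kept apart. The genes lie in tight clusters, with 5 on chromosome 7, 3 on chromosome 10, 22 on chromosome 11 and 23 on chromosome 16.

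The stretch just before the start of these genes was alike in 1 respect. A TATA box is a short motif near the start of a gene at which the transcription machinery can assemble. The letters TATAAA, read on the gene's strand within the 60 bases before the RefSeq start (build GRCm38.p6), were found in 34 of the 48 Krtap genes with a promoter entry, or 70.8%, against 3.15% of all 27025 promoters in the same table. In the whole 300-base window, on either strand, they were found in 81.2% of Krtap promoters and 14.2% of all promoters. The first T lay 27 to 55 bases before the start, with a median of 31. By class, the letters stood in the 60 bases of 14 of 17 ultra-high-sulfur, 12 of 16 high-sulfur and 6 of 13 high-glycine-tyrosine genes. They stood in 7 of the 10 genes called below and in 23 of the 32 tested genes with a promoter entry that were not called, so the motif was about as frequent in both. A match to these letters is a description and not a measured site. The lines below show the 60 bases before the start for the gene of each main class with the highest mean CPM and for the called genes with the smallest p whose RefSeq and GENCODE starts lay within 5 bases of each other, with TATAAA in capitals. Krtap11-1 lies at chr16:89571184-89571243, Krtap17-1 at chr11:99993995-99994054, Krtap8-1 at chr16:89487953-89488012, Krtap4-7 at chr11:99644090-99644149, Krtap4-16 at chr11:99851606-99851665, Krtap3-3 at chr11:99550864-99550923 and Krtap19-9b at chr16:88932265-88932324, all on the minus strand. Krtap3-3, which rose, had no exact match to TATAAA, which does not show that it lacks a TATA box.
Krtap11-1: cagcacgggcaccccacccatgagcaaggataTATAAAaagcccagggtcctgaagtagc
Krtap17-1: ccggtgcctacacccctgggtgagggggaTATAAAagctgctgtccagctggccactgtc
Krtap8-1: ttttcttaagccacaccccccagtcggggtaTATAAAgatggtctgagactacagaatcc
Krtap4-7: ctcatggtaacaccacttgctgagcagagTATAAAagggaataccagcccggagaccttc
Krtap4-16: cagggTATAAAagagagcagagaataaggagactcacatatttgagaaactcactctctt
Krtap3-3: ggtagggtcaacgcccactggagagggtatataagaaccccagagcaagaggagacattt
Krtap19-9b: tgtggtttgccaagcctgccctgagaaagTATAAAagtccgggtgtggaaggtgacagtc

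Libraries held 9746937 to 11688979 counted reads in AD mice and 10726845 to 13462434 in AD+OB mice. Levels are given as CPM, the reads of a gene scaled to a common library size with TMM factors, which ran from 0.944 to 1.04. A count of 0 in these libraries allows up to 0.223 to 0.308 CPM, a limit that covers counting error only. More genes were detected in every AD+OB library (15522 to 16677) than in any AD library (13100 to 15063), and the part of this difference in the results below was not tested. Krtap genes with at least 1 read numbered 44 to 47 in AD and 47 to 50 in AD+OB mice. AD mouse 5 stood apart from the other AD mice in total Krtap reads, so the gene calls, the median fold change and the separated genes are also given without it. The class shares, the summed levels and the correlations between members include this mouse.

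Krtap transcripts took up a larger part of the library in most AD+OB mice, but the groups overlapped. In AD mice 1 to 5 they made up 0.358%, 0.398%, 0.390%, 0.414% and 0.720% of all reads. The AD+OB mice ranged from 0.463% to 0.976%, with a median of 0.563%. All 7 AD+OB mice lay above AD mice 1 to 4, and 2 of 7 lay above AD mouse 5. Without Krtap8-1, the gene with most reads, the shares were 0.258% to 0.559% in AD and 0.393% to 0.753% in AD+OB mice. In bulk skin, more hair-forming cells and more Krtap RNA per cell cannot be told apart. Averaged over the 12 mice, Krtap8-1 had 1227 CPM, Krtap11-1 930 CPM and Krtap7-1 572 CPM, or 2137, 923 and 920 CPM per kilobase of transcript. A 3′ library reads the end of each transcript, so the division by length may not apply here, and no order is read between Krtap11-1 and Krtap7-1. These 3 genes took 42.7% to 56.1% of Krtap reads in AD mice and 36.7% to 53.5% in AD+OB mice.

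**Figure D1:**
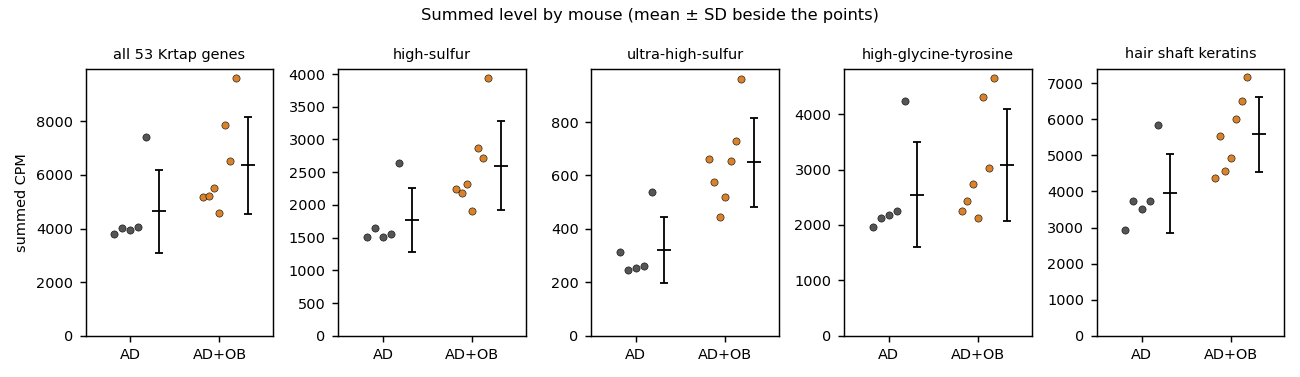
Summed level in each mouse, in CPM, for all 53 Krtap genes, the 3 main classes and the hair shaft keratins, with 1 point per mouse. The mean and SD of each group stand beside the points. AD mouse 5 lies above the other 4 AD mice in the 3 main classes, and 5 of 7 AD+OB mice lie above all AD mice in the ultra-high-sulfur class against 3 of 7 in the high-sulfur and 2 of 7 in the high-glycine-tyrosine class.

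The mix of classes differed between mice of the groups as well. Ultra-high-sulfur genes took 6.13% to 8.22% of Krtap reads in AD mice and 8.10% to 12.7% in AD+OB mice, with 6 of 7 AD+OB mice above all AD mice. High-glycine-tyrosine genes took 51.7% to 57.1% in AD mice (54.4% ± 2.16, SD, n = 5) and 43.5% to 54.9% in AD+OB mice (48.0% ± 3.58, SD, n = 7). High-sulfur genes took 35.5% to 41.0% and 36.6% to 43.1%. These shares add to a fixed total, so a larger share for one class lowers the others, and no test was made of them.

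Gene by gene, 10 of the 46 Krtap genes with enough reads to test rose in AD+OB skin and 0 fell (edgeR quasi-likelihood test, Benjamini-Hochberg adjusted over 14163 genes, threshold 0.05). That is 21.7% of those tested, where 4.43% of all genes tested rose and 4.77% fell, and 5.05% rose among the 11347 genes within the range of Krtap levels. At an unadjusted p under 0.05, 21 were higher and 0 lower, against 12.3% and 12.8% of all genes. With DESeq2, 18 rose and 0 fell, where 7.55% of the genes with an adjusted p rose, and with limma-trend 16 rose and 0 fell, where 6.19% did. The fitted log2 fold change was above 0 in 43 of the 46, where 51.7% of all genes were above 0, and its median was 0.58 against 0.02 for all genes. Each of the 46 had a mean count of at least 20, and in 5 of them every AD+OB mouse lay above every AD mouse, where 2.83% of all genes with such counts separated upward and 2.73% downward. Without AD mouse 5, 18 of 47 were called, where 4.93% of all genes rose, and the median was 0.72; Krtap1-5, Krtap10-10, Krtap11-1, Krtap17-1, Krtap3-1, Krtap3-2, Krtap31-2, Krtap4-1 and Krtap4-9 were then called and Krtap5-5 was not. Without AD mouse 4, 7 were called, where 3.81% of all genes rose, and without AD+OB mouse 7 also 7, where 3.3% rose. Leaving out a mouse can only keep or raise the number of separated genes: it was 12 without AD mouse 5, where 4.48% of all genes separated upward, and 8 without AD+OB mouse 3, where 3.47% did. The members did not vary independently, so these counts are not counts of independent events: across mice of the same group, the median correlation (Pearson's r of log2 levels) between pairs of tested members was 0.42 over 1035 pairs, 0.61 within the high-glycine-tyrosine, 0.57 within the high-sulfur and 0.27 within the ultra-high-sulfur class.

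**Figure D2:**
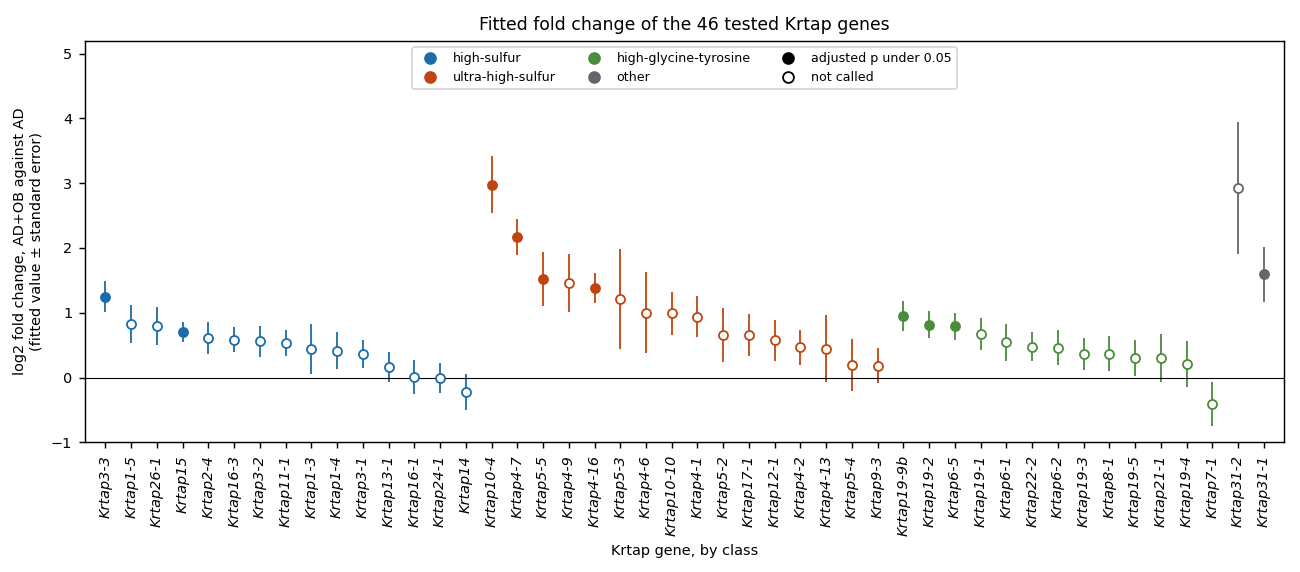
Fitted log2 fold change of each tested Krtap gene, AD+OB against AD, on the vertical axis, with genes grouped by class along the horizontal axis and bars of 1 standard error from edgeR. Filled points are the 10 genes with an adjusted p under 0.05, and the 3 points below 0 are Krtap7-1, Krtap14 and Krtap24-1, none of them called.

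Ultra-high-sulfur genes held the largest fitted changes among the called genes. All 16 tested of the 20 had a log2 fold change above 0, with a median of 0.96, and 4 rose: Krtap10-4, Krtap4-7, Krtap4-16 and Krtap5-5. The summed level was 246 to 536 CPM in AD mice and 446 to 959 CPM in AD+OB mice. Proteins of the Krtap4 family are cysteine-rich parts of the cortex, and those of the Krtap5 and Krtap10 families are known from the hair cuticle.

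Krtap4-7 (chr11:99643106-99644089) read 20.6, 15.7, 15.2, 16.3 and 29.3 CPM in AD mice 1 to 5, and 47.0, 84.3 and 154 CPM at the lowest, median and highest AD+OB mouse. No mouse of one group reached the other. Its log2 fold change was 2.17 ± 0.28 (SE), or 4.51-fold, with an edgeR adjusted p of 0.00135, and the exact two-sided permutation test of log2 levels gave 0.00126, the smallest p that the 792 splits of 5 and 7 mice allow. Krtap10-4 (chr10:77826115-77827095) was scarce in AD skin, at 4.17, 0.932, 6.77, 6.46 and 8.15 CPM, and reached 19.8, 44.8 and 72.3 CPM at the lowest, median and highest AD+OB mouse. The groups were again apart, by 2.98 ± 0.44 on the log2 scale (7.89-fold, edgeR adjusted p = 0.00321). Krtap4-16 (chr11:99850655-99851608) went from 26.2, 21.2, 29.9, 24 and 54.7 CPM to 57.3, 81.0 and 105 CPM, a log2 fold change of 1.38 ± 0.23 (edgeR adjusted p = 0.00492). AD mouse 5 came close to the lowest AD+OB mouse without reaching it. Krtap5-5 (chr7:142228795-142229971) read 5.54, 13.6, 2.02, 8.14 and 3.08 CPM in AD mice against 13.1, 18.7 and 26.7 CPM, so only AD mouse 2 lay within the AD+OB range. Its log2 fold change was 1.52 ± 0.41 (edgeR adjusted p = 0.0290), and the call held in 17 of 22 alternative analyses. Those in which it was lost included the ones without AD mouse 5, without AD+OB mouse 1 or 6, and with a correction for GC content.

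The families were not uniform. The 8 Krtap4 genes summed to 102 to 249 CPM in AD mice and 220 to 460 CPM in AD+OB mice, with 6 of 7 AD+OB mice above all AD mice. Krtap4-2, a neighbour of Krtap4-7, had a log2 fold change of 0.47 (edgeR adjusted p = 0.299), and Krtap4-13 of 0.44 (edgeR adjusted p = 0.647). The last 150 bases of the Krtap4-13 transcript match Gm11554 throughout, so its reads may belong to either gene. Krtap4-9 lay just outside the threshold, at 4.95 to 38.0 CPM in AD and 19.2 to 71.7 CPM in AD+OB mice, with a log2 fold change of 1.45 ± 0.45 and an edgeR adjusted p of 0.0511. Krtap4-1 read 33.0, 9.74, 26.4, 24.7 and 51.8 CPM in AD and 31.8, 55.6 and 81.7 CPM at the lowest, median and highest AD+OB mouse (log2 fold change 0.94, edgeR adjusted p = 0.0724). Krtap4-6 and Krtap5-3 each had 0 reads in 1 AD library and were not called. Krtap17-1, which had the highest mean read level of the class, read 64.5, 26, 30.0, 36.8 and 99.8 CPM in AD and 54.7, 66.6 and 140 CPM in AD+OB mice (log2 fold change 0.66, edgeR adjusted p = 0.211), and Krtap9-3 stood at 0.18 (edgeR adjusted p = 0.733). AD mouse 5 lay above 6 of 7 AD+OB mice for Krtap17-1 and above all 7 for Krtap9-3.

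**Figure D3:**
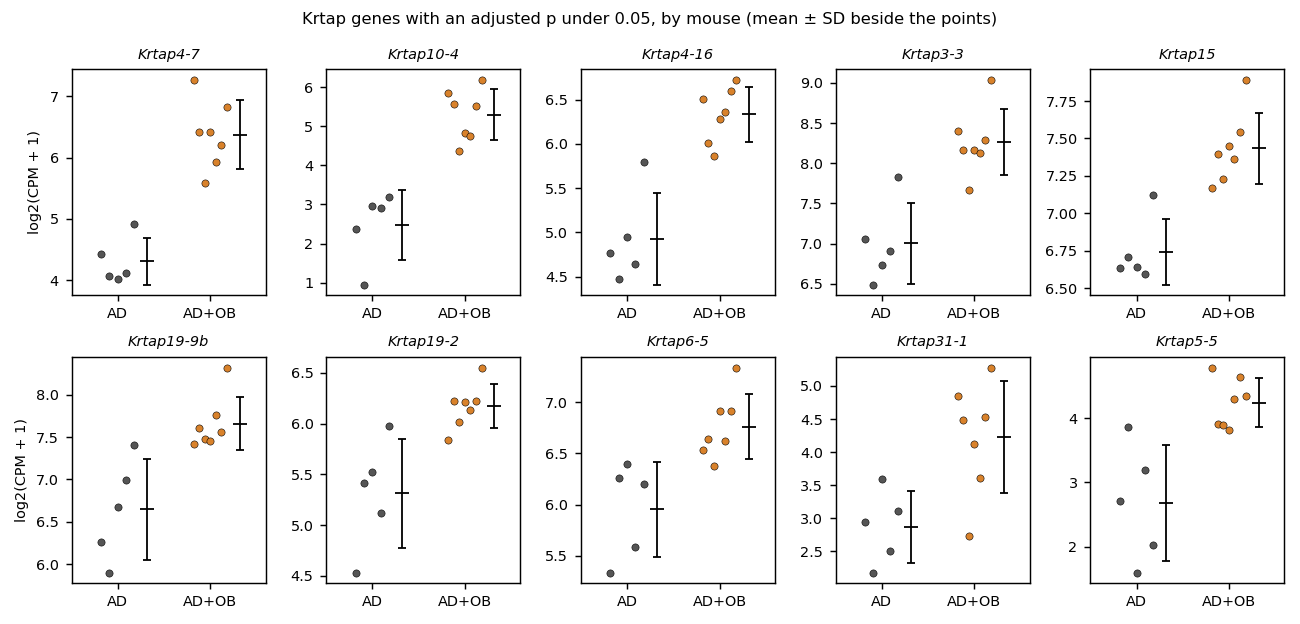
Level of the 10 called Krtap genes in each mouse, as log2(CPM + 1) on the vertical axis, with 1 point per mouse for AD and AD+OB. Krtap4-7, Krtap10-4, Krtap4-16, Krtap15 and Krtap19-9b have all 7 AD+OB mice above all 5 AD mice, and the other 5 genes have 6 of 7.

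Of the 17 high-sulfur genes, 15 were tested, 13 had a log2 fold change above 0 with a class median of 0.53, and 2 rose, Krtap3-3 and Krtap15. The class summed to 1504 to 2634 CPM in AD and 1908 to 3939 CPM in AD+OB mice. Krtap3-3 (chr11:99550130-99550865), 1 of 3 neighbouring cortical genes of its family, read 132, 88.9, 105, 119 and 226 CPM in AD mice and 202, 287 and 526 CPM at the lowest, median and highest AD+OB mouse. AD mouse 5 exceeded 1 AD+OB mouse, and the log2 fold change was 1.25 ± 0.24 (2.37-fold, edgeR adjusted p = 0.00757). Its neighbours Krtap3-2 and Krtap3-1 had 0.56 and 0.37 (edgeR adjusted p = 0.155 and 0.319). Krtap15 (chr16:88820215-88829844) read 98.5, 103, 99.0, 95.6 and 139 CPM in AD and 143, 167 and 237 CPM in AD+OB mice. The groups did not overlap, although the step was small, 0.70 ± 0.15 on the log2 scale (edgeR adjusted p = 0.0108).

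Krtap14 overlaps Krtap15 on the opposite strand and did not move with it: it read 49.4, 134, 117, 141 and 204 CPM in AD and 65.7, 116 and 166 CPM in AD+OB mice, with a log2 fold change of -0.23 (edgeR adjusted p = 0.663). Whether the counting used strand is not given in the sources used here, so reads of this pair may be divided wrongly. Krtap11-1, a cortical gene and the most abundant of the class, read 596, 744, 600, 674 and 1078 CPM in AD and 684, 1040 and 1622 CPM in AD+OB mice. Its log2 fold change of 0.53 had an edgeR adjusted p of 0.105 (exact permutation p = 0.0467), and it was called without AD mouse 5. Krtap16-3 was placed here by its family number, though it sits between high-glycine-tyrosine genes on chromosome 16, and had 0.59 (edgeR adjusted p = 0.0739). Krtap24-1, at 17 to 30.4 CPM in AD and 17.4 to 38.4 CPM in AD+OB mice, had a log2 fold change of -0.01 (edgeR adjusted p = 0.985).

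High-glycine-tyrosine genes all lay on chromosome 16 and held more reads than any other class in every mouse. Of 14 genes 13 were tested, 12 had a log2 fold change above 0 with a median of 0.46, and 3 rose, Krtap19-9b, Krtap19-2 and Krtap6-5. Krtap19-9b (chr16:88931804-88932265) read 75.4, 58.7, 101, 126 and 168 CPM in AD mice and 169, 188 and 319 CPM at the lowest, median and highest AD+OB mouse. The lowest AD+OB mouse lay just above the highest AD mouse, and the log2 fold change was 0.95 ± 0.23 (edgeR adjusted p = 0.0191). Krtap19-2 and Krtap6-5 were named after their values were seen, since they were called. Krtap19-2 read 22.1 to 61.9 CPM in AD and 56.2 to 92.8 CPM in AD+OB mice, a log2 fold change of 0.81 ± 0.21 (edgeR adjusted p = 0.0251). Krtap6-5 read 39.4 to 83.3 CPM and 82.3 to 161 CPM, a log2 fold change of 0.79 ± 0.21 (edgeR adjusted p = 0.0262). Each call held in 18 of 22 alternative analyses. The losses included those without AD mouse 4 and without AD+OB mouse 7 for both genes, without AD+OB mouse 2 for Krtap19-2 and without AD+OB mouse 4 for Krtap6-5. Other members of the Krtap19 family were not called, among them Krtap19-3 (0.37, edgeR adjusted p = 0.381) and Krtap19-5 (0.30, edgeR adjusted p = 0.547).

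The class's most abundant genes were not called. Krtap8-1 (chr16:89487379-89487952) read 1064, 860, 703, 967 and 1655 CPM in AD and 690, 1237 and 2190 CPM in AD+OB mice (log2 fold change 0.37 ± 0.27, edgeR adjusted p = 0.431). The lowest of the 12 values was in an AD+OB mouse, and only 2 of 7 AD+OB mice exceeded all AD mice. Krtap7-1 read 338, 555, 388, 636 and 1425 CPM in AD and 290, 439 and 954 CPM in AD+OB mice (log2 fold change -0.41 ± 0.34, edgeR adjusted p = 0.492). Its highest value was in AD mouse 5, and without that mouse the log2 fold change was 0.08. A p above the threshold does not show that either gene had the same level in both groups.

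**Figure D4:**
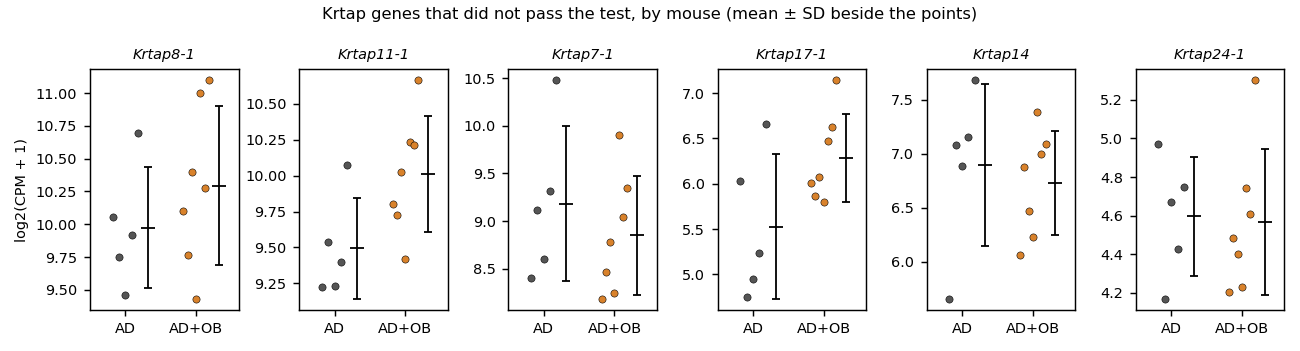
Level of named Krtap genes that were not called, as log2(CPM + 1) on the vertical axis, with 1 point per mouse for AD and AD+OB. The values of both groups intermingle, with AD mouse 5 among the highest points for Krtap7-1 and Krtap17-1.

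The Krtap31 pair on chromosome 11 had low levels and large fitted changes. Krtap31-1 (chr11:99907920-99908892) read 6.72, 3.52, 11.1, 4.69 and 7.60 CPM in AD and 5.66, 21.3 and 37.8 CPM in AD+OB mice. In 6 of 7 AD+OB mice it exceeded all AD mice, and it was called at 1.59 ± 0.42 (edgeR adjusted p = 0.0268), a call that held in 15 of 22 alternative analyses and was lost, among others, without AD mouse 2 or 4 and without AD+OB mouse 1, 2 or 7. Krtap31-2 had 0 reads in 2 AD mice and at most 4.16 CPM in the others, against 2.09, 6.40 and 22 CPM, and its log2 fold change of 2.92 ± 1.02 did not pass (edgeR adjusted p = 0.0828). The remaining 7 genes were too scarce to test, and Krtap13 was the 1 gene with 0 reads in all 12 mice. Krtap4-8 had 0 reads in all AD mice and up to 26 in AD+OB mice, 5 of 7 with any, and Krtap9-1 had 0 reads in all AD mice and up to 19, 6 of 7 with any. Both were named after their values were seen. More genes were detected in every AD+OB library than in any AD library, and the share of all genes with such a pattern was not counted. Krtap9-5, Krtap27-1, Krtap20-2 and Krtap5-1 did not exceed 14 reads in any library.

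Members that share sequence with another gene are less certain. In 7 genes at least 130 of the last 150 bases of the transcript, the part a 3′ library reads, were identical to another gene. Among the called genes these were Krtap10-4, with 136 bases in common with Gm3285, which itself had 0 to 13 reads, and Krtap19-2, with 136 in common with Krtap19-3. Krtap4-13, not called, had 150 in common with Gm11554, which itself had 0 to 177 reads. Krtap4-8, not tested, had 135 in common with Gm11596, which itself had 0 to 18 reads. Krtap10-4, Krtap10-10 and Krtap12-1 also lie within Tspear on chromosome 10. How reads that fit several places were treated is not given in the sources used here. Base composition moved with the change too: over 5 equal bins of transcript GC content, the share of all genes that rose went from 2.56% in the lowest to 6.94% in the highest. Krtap genes were called in every bin, from the lowest to the highest 1 of 6, 2 of 8, 3 of 11, 1 of 9 and 3 of 12. With GC content removed as an offset 10 Krtap genes rose, where 3.33% of all genes did, 9 of the 10 shared, Krtap5-5 being lost and Krtap16-3 gained.

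Other genes of the hair shaft and its sheaths were read from lists set by their known roles, with earlier results of these data known. Of all genes tested, 4.43% rose and 4.77% fell. Of the hair shaft keratins, the filament proteins that Krtap proteins bind, 5 of 14 tested rose and 0 fell, with a median log2 fold change of 0.72, and the sum was 2937 to 5835 CPM in AD and 4367 to 7169 CPM in AD+OB mice. The smallest adjusted p-values from edgeR were those of Krt34 (log2 fold change 1.33, adjusted p = 0.00283), Krt31 (1.14, adjusted p = 0.00459) and Krt39 (1.49, adjusted p = 0.00459). Of the shaft enzymes and other shaft genes, 5 of 8 rose, S100a3, Padi3, Padi1, Lpar6 and Ly6g6d, with a median of 0.75. S100a3, a calcium-binding protein of the cuticle, changed by 1.32. Among inner root sheath genes 3 of 8 rose (Krt26, Krt27 and Krt71, median 0.63), and their sum was 6819 to 11325 CPM in AD and 8406 to 11872 CPM in AD+OB mice. Of 10 regulators of the hair matrix, Foxn1, a factor needed for the shaft, rose (0.78, edgeR adjusted p = 0.0132), and Hoxc13, which controls hair keratin genes, had 0.38 (edgeR adjusted p = 0.217). The median of these 10 was 0.14, and 0 fell.

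Some markers of other cells in skin were called as well, and their part in the Krtap values was not tested. The shares of all genes tested were 4.43% up and 4.77% down, and a list with a single call is not read as moving as a set. Interfollicular epidermis genes summed to 3319 to 5402 CPM in AD and 5925 to 10408 CPM in AD+OB mice, with no overlap, and 3 of 8 rose (Krt5, Krt14 and Krt15, which the outer root sheath also makes), with a list median of 0.12. Of its other members, Krt2 had a log2 fold change of -1.01, Krt10 of -0.42, Dsg1a of -0.10, Krt1 of 0.12 and Dsc1 of 0.12, none of them called. Of 7 outer root sheath and stem cell genes, Sox9 alone rose, and the median was -0.15. Pigment cell genes summed to 1859 to 2885 CPM and 937 to 2011 CPM, and 2 of 7 fell, Dct and Pmel. Skeletal muscle genes summed to 1170 to 2318 CPM and 701 to 1830 CPM, and 2 of 8 fell, Acta1 and Atp2a1. Adipocyte genes summed to 154 to 713 CPM and 142 to 567 CPM, and Lipe alone of 7 rose, with a list median of 0.10. No listed marker was at 0 in all 12 mice.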

How the data were processed

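The authors extracted skin RNA with TRIzol, prepared QuantSeq 3′ libraries and sequenced them on a NextSeq 500, and deposited raw read counts per gene for each mouse. Per the submitters' processing notes, Bowtie2, bedtools and build mm10 were used, and the study normalized counts with edgeR; alignment settings, annotation, strand, duplicates and reads that fit several places are not given in the sources used here. The labels name each sample as a separate mouse sample, so p-values measure the spread between these 12 libraries.

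The 12 count tables were joined over 23282 entries. Counts were tested across all genes with edgeR 4.0.16 (R 4.3.3; filterByExpr, TMM, quasi-likelihood test, Benjamini-Hochberg over 14163 genes), AD+OB against AD, with no covariate. Single genes were also tested by an exact two-sided permutation test of log2(CPM + 1) over 792 splits. DESeq2 1.42.0 and limma 3.58.1 were alternatives, with library totals, filters, a replicate block, GC correction (chosen after seeing the data) and each mouse left out. Gene coordinates are from GENCODE M21 (GRCm38, mm10) and promoters from RefSeq; transcript ends were compared with BLAST 2.17.0. Figures used matplotlib 3.10.9.

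Genes were named by class level (5 highest in each class), by the 5 largest rises, by log2 fold changes below 0, of which there were 3, and by the 5 smallest p. The members, the classes and the 9 marker lists (hair shaft keratins, inner root sheath, hair matrix regulators, shaft enzymes and other shaft genes, interfollicular epidermis, outer root sheath and stem cell, pigment cells, skeletal muscle, adipocytes) were chosen with earlier results of these data known. Floors cover counting error only. The SE values come from the edgeR fit and the SD values from single mice, so both include the spread between mice.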

Additional observations from a re-analysis of the deposited data

Results flagged for a closer look

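In 42 group values examined for 1 mouse far from the rest of its group, 3 stood out, and chance alone gives about 1 in 20. AD mouse 5 had 0.720% of its reads on Krtap genes, where the other 4 AD mice had 0.358% to 0.414%. The same mouse had a Krtap15 level of 7.13 on the log2(CPM + 1) scale, where the others had 6.59 to 6.71. AD+OB mouse 7 had a Krtap19-9b level of 8.32, where the other 6 had 7.41 to 7.76.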

How the results depend on the processing

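The count of 10 Krtap genes higher in AD+OB became 18 with DESeq2, 16 with limma-trend and 4 with a replicate block, and ran from 7 (without AD mouse 4 or AD+OB mouse 7) to 18 (without AD mouse 5) when each mouse was left out. Other settings gave 9 to 11, and 0 Krtap genes fell under any alternative run. Separated genes numbered 5 to 12 with a mouse left out. The median log2 fold change was 0.44 to 0.72 over the alternatives. Krtap10-4, Krtap3-3, Krtap4-7 and Krtap4-16 were called in all alternatives that tested them. Calls of Krtap15 and Krtap19-9b were lost only with the replicate block, which also lost Krtap19-2, Krtap6-5, Krtap31-1 and Krtap5-5 and under which 0.706% of all genes rose. Over all genes, library totals called 5.25% higher and 3.64% lower, and GC correction 3.33% and 6.14%. Same-numbered mice did not deviate together (correlations -0.08 to 0.04 over 5 pairs, and 0 of 5 AD mice correlated best with their own number). These values gave no sign that the numbers pair the mice, but so few pairs cannot show that they do not. AD+OB mice 6 and 7 have no same-numbered AD mouse in the block.

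Among the named genes, the direction changed in at least 1 alternative for Krtap24-1, Krtap9-3, Krtap14 and Krtap7-1, none of them called, and the cause was not tested. Krtap24-1 had a log2 fold change of 0.0396 with library totals, 0.0250 with voom weights and 0.0357 with GC correction, and a mean difference of 0.0127 with library totals. With each mouse left out, log2 fold changes ran from -0.177 to 0.0996 for Krtap24-1, -0.435 to 0.0068 for Krtap14, -0.647 to 0.0803 for Krtap7-1 and -0.0182 to 0.497 for Krtap9-3, and mean differences from -0.153 to 0.0635 for Krtap24-1, -0.471 to 0.0353 for Krtap14 and -0.0046 to 0.523 for Krtap9-3. Depth left 7 genes untested, with means of at most 6.08 counts (Krtap4-8).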
